A study of Mus musculus with 4 samples.

Results

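Terminal-exon peaks of trimethylated lysine 36 on histone H3 (H3K36me3) were described in mouse forebrain neural progenitors on embryonic day 13. These are the ChIP-seq peaks that the authors' annotation places in the last exon of a transcript, that is, in exon M of M, where M is the number of exons and is at least 2. The rule uses position alone and no measured level. It selected 6856 of 95750 peaks in the library from forebrains that lacked H2A.z1 through deletion in the brain (cKO), and 3269 of 36820 peaks in the wild-type (WT) library.

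Both groups were C57BL/6 mice, with 1 ChIP library and 1 input library of each genotype, so 4 libraries in all. H2A.z1 is the histone variant encoded by H2az1 (H2afz in older annotation). The sources used here do not give the driver of the deletion, the alleles of the controls or the number of embryos per library. The ChIP libraries held 32927164 tags in cKO and 31984670 tags in WT, against 35026817 and 38500353 input tags, so sequencing depth was similar. With no replicate, no test between genotypes was possible, and every difference below is one between 2 libraries. Ranges in brackets are 95% intervals (exact, Clopper-Pearson), which account for counting error only. In bulk chromatin, a larger share of cells with the mark and more mark per cell cannot be told apart.

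H3K36me3 is placed on nucleosomes of transcribed genes by SETD2, a methyltransferase that travels with elongating RNA polymerase II, and the mark typically builds up toward the 3′ end of a gene. The terminal exon carries the stop codon of most genes, the 3′ untranslated region and the signals for cleavage and polyadenylation. Readers of the mark include DNMT3A, NSD-family proteins and others with a PWWP domain, and in neural progenitors the mark covers genes of the progenitor program as well as genes common to all cells.

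The labelled cell type was checked against fixed markers, counting a gene as marked with at least 1 peak annotated to it. Of 14 neural progenitor markers, 12 were marked in cKO and 10 in WT. Hes5 and Fabp7, a Notch target and a radial glial lipid-binding protein, had no peak in either library. Of 8 neuronal markers, 4 were marked in cKO and 3 in WT, and Dcx, Neurod2, Neurod6 and Tbr1 had none. Of 8 endothelial and mural markers 1 (Cldn5) was marked in each library, of 9 microglial and blood markers 1 (Alas2) in cKO and 0 in WT, and of 5 mesenchymal markers 0 in both. Counted by the gene that holds the peak, an unlike measure, 9218 of 21887 protein-coding genes had a peak in cKO and 6659 in WT. The progenitor share lay above that background, the neuronal share near it and the other shares below it, on small counts. The Cldn5 peaks carried its name only as the nearest start site. All of these marker counts rest on that name, so peaks of the other markers may also lie outside the gene. Alas2, for example, had 6 cKO peaks by name and 1 when peaks were assigned to the gene that holds them. The deleted gene gave no check of the labels, because H2az1 had no terminal-exon peak in either list and the libraries measure a histone mark and not the deleted exons.

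Several terminal-exon peaks held annotated microRNA hairpins, which gives sequence landmarks inside them. Of 1005 hairpins in the RefSeq table (GRCm38.p6), 7 were touched by terminal-exon peaks of cKO, 6 of them wholly covered, and 1 by those of WT. The hairpin found in terminal-exon peaks of both genotypes was Mir1905, in the terminal exon of Mex3a, a gene for an RNA-binding protein. The cKO peak there measured 2669 bp (chr3:88536062-88538730, mm10) and the WT peak 2729 bp (chr3:88536079-88538807). Mir1905 lies on the minus strand and Mex3a on the plus strand. Mir6996 lay in a cKO peak of 5346 bp in Notch1, and the gene of mmu-miR-3535 lay in a cKO peak of 4485 bp in Ncl, which encodes nucleolin. The mature sequences of these 3 loci are shown 5′ to 3′ with the seed (bases 2 to 8) in capitals, and no 2 of them share a seed.
mmu-miR-1905: cACCAGUCccaccacgcgguag
mmu-miR-6996-5p: uGCACAGGacagagcacaguc
mmu-miR-6996-3p: cGGUGUCUcuggucacucugcag
mmu-miR-3535: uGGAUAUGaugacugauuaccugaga
The remaining hairpins were Mir7118 in Plxnb2, Mir5114 in Scd2, Mir7031 in Sh2b3 and, partly covered, Mir12193 in Arl2, all in cKO alone. A hairpin inside a peak is a position and not a measurement of the microRNA.

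The first question was how large a share of the mark lay in terminal exons. Terminal-exon peaks made up 7.16% of all peaks in cKO (6.998 to 7.33%) and 8.88% in WT (8.59 to 9.17%). This order did not hold when the cKO list was cut to its strongest peaks at the covered length of WT. The cKO share was then 9.19% (8.43 to 10.0%), an interval that holds the WT share. Among exon peaks of transcripts with at least 2 exons the order was the other way: 47.2% of 14539 in cKO (46.3 to 48.0%) and 40.04% of 8165 in WT (39.0 to 41.1%). Internal exons held 49.2% of these exon peaks in cKO and 56.9% in WT, and the first exon 3.62% in cKO and 3.06% in WT. The intervals of the 2 libraries did not overlap for the terminal or the internal share. The peaks lay in 5101 transcripts in cKO and 2591 in WT. On the X chromosome there were 115 terminal-exon peaks in cKO, 1.68% of them beside 1.197% of all cKO peaks, and 16 in WT, 0.489% of them beside 0.375% of all WT peaks.

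The terminal share of exon peaks was higher in cKO at every length of transcript examined. For transcripts of 2 to 5 exons it was 74.1% in cKO and 70.4% in WT. It was 56.3% in cKO and 49.1% in WT for 6 to 10 exons, and 37.9% in cKO and 30.5% in WT for 11 to 20 exons. For over 20 exons it was 18.4% in cKO and 14.3% in WT. The share was thus smaller the more exons a transcript had, in both libraries. Over peaks, the annotated transcript had a median of 7 exons in cKO (quartiles 4 and 12) and 6 in WT (quartiles 3 and 12). At the edge of the rule, peaks of single-exon transcripts, which were left out, numbered 460 in cKO and 215 in WT, with median widths of 397 bp and 289 bp. Terminal-exon peaks of 2-exon transcripts, just inside it, numbered 935 in cKO and 442 in WT, with median widths of 471 bp and 298.5 bp.

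**Figure D1:**
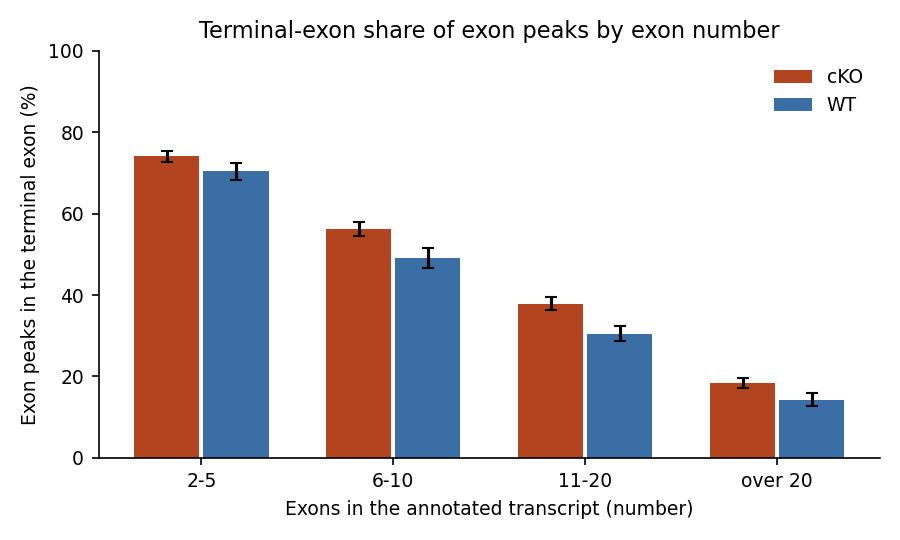
Share of exon peaks that lay in the terminal exon (y axis, percent) for transcripts grouped by exon number (x axis), in cKO (left bar of each pair) and WT (right bar); error bars are exact 95% Clopper-Pearson intervals. The cKO bar stands above the WT bar in all 4 groups, at 74.1% and 70.4% for 2 to 5 exons and 18.4% and 14.3% for over 20 exons.

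The summits lay close to the gene end, as the annotation class implies, but not always. A host gene, the protein-coding gene whose span holds the peak centre or whose transcript carries the exon, was found for 6575 cKO peaks (95.9%) and 3139 WT peaks (96.0%). The annotation's own gene name is that of the nearest start site and was the host gene in 58.0% of these cKO peaks and 58.2% of these WT peaks. Where strand and span were known, for 5297 peaks in cKO and 2488 in WT, the summit lay a median of 2303 bp upstream of the gene end in cKO and 2175 bp in WT. The last 10% of the gene body held 55.9% of these summits in cKO and 52.7% in WT. For internal-exon peaks the same region held 13.1% in cKO and 13.5% in WT. A further group lay far from the gene end: 12.1% of cKO and 7.64% of WT summits were over 20 kb upstream of it, in transcripts with a median of 4 exons in both libraries. Notch1, the receptor of Notch signalling in progenitors, shows both kinds. Its WT peaks were 1 of 1204 bp, 2862 bp from the gene end in exon 34 of 34, and 3 of 365 to 405 bp, 40641 to 41961 bp upstream of the gene end in exon 2 of 2 of a short transcript.

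**Figure D2:**
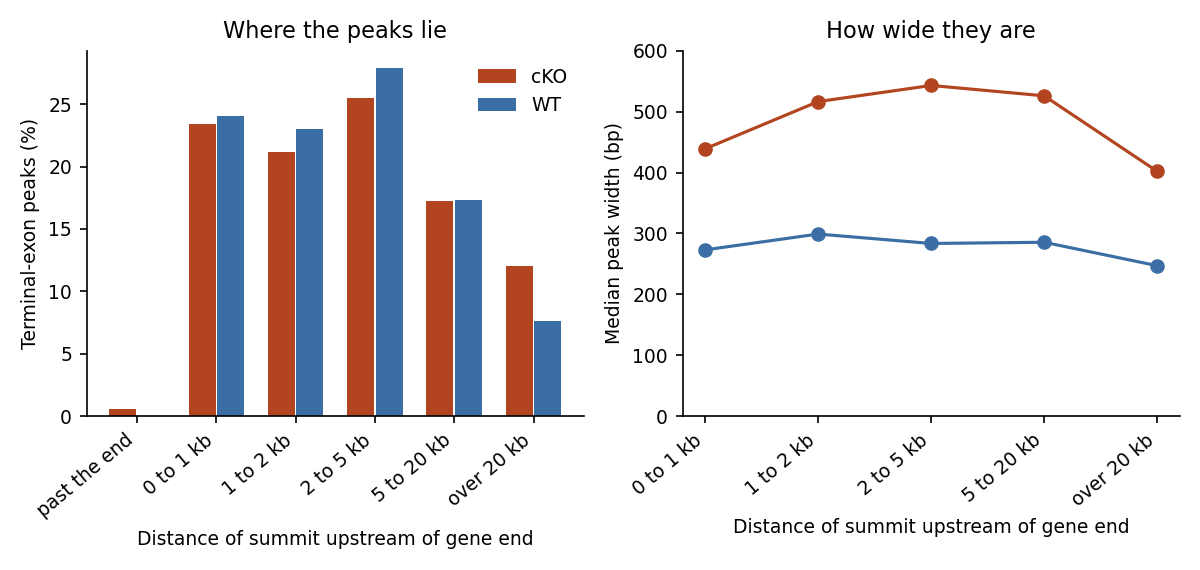
Left panel, share of terminal-exon peaks (y axis, percent) by the distance of the summit upstream of the end of the host gene (x axis), in cKO (left bar) and WT (right bar); right panel, median peak width (y axis, bp) by the same distance. The share over 20 kb is 12.1% in cKO and 7.64% in WT, and the cKO line lies above the WT line in all 5 distance groups, at 439 bp against 273 bp in the last 1 kb.

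Terminal-exon peaks were wider in cKO. Their median width was 483 bp in cKO (quartiles 296 and 907 bp) and 278 bp in WT (quartiles 196 and 423 bp), beside 436 bp for all cKO peaks and 271 bp for all WT peaks. The shortest peaks were 185 bp in cKO and 152 bp in WT, which are the fragment lengths the peak caller modelled, so the smallest possible width differed between the lists. Peaks over 2 kb numbered 472 in cKO (6.88%, 6.30 to 7.51%) and 18 in WT (0.551%, 0.327 to 0.869%). Of all peaks, 5.99% in cKO and 0.475% in WT were over 2 kb, and of internal-exon peaks 7.92% in cKO and 0.474% in WT. The internal-exon peaks had medians of 466 bp in cKO and 277 bp in WT, and the peaks at transcription termination sites (TTS) 493 bp in cKO and 283 bp in WT, so the difference between genotypes was of like size in these classes. All terminal-exon peaks together spanned 5.26 Mb of the genome in cKO and 1.203 Mb in WT. Within its own list, the median terminal-exon peak stood at percentile 56.3 of −log10 q in cKO and 54.3 in WT, near the middle.

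Most cKO terminal-exon peaks had no WT counterpart, while nearly every WT terminal-exon peak lay where cKO also had a peak. Of the cKO peaks, 2081 (30.4%, 29.3 to 31.5%) shared 1 bp or more with a WT peak, beside 25.3% of all cKO peaks. Of the WT peaks, 3190 (97.6%, 97.0 to 98.1%) shared 1 bp or more with a cKO peak, beside 96% of all WT peaks. Counted in bases, 20.4% of the cKO terminal-exon sequence lay inside WT peaks and 96.9% of the WT sequence inside cKO peaks. A single cKO peak often held several WT peaks: 542 cKO peaks (7.91%) held 2 or more, with up to 9. Of the WT peaks, 2890 (88.4%) lay wholly inside a cKO peak. In cKO the share with a WT partner depended on strength. It was 6.71% in the weakest quartile by −log10 q, 13.1% and 28.8% in the next ones and 72.8% in the strongest, whose median width was 1180.5 bp. In WT it was 96.0 to 98.9% in every quartile. The shares depended on the lists and the overlap required: at equal covered length 93.4% of the remaining cKO and 32.0% of the WT peaks had a partner, and a reciprocal overlap of 50% left 7.39% in cKO and 15.5% in WT.

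The overlapping peak of the other genotype often belonged to another class. Among the 2081 cKO terminal-exon peaks with a WT partner, 87.6% met a WT terminal-exon peak (86.1 to 89.0%). Among the 3190 WT terminal-exon peaks with a cKO partner, 68.2% met a cKO terminal-exon peak (66.6 to 69.9%). A cKO peak at a TTS was met by 12.8% of them, one in a last intron by 8.93%, one in another intron by 5.36%, one in an internal exon by 2.66% and one at a promoter by 1.94%. Most WT terminal-exon peaks that met no cKO terminal-exon peak thus lay at a cKO peak of another class. H2az2, the paralogue of the deleted H2az1, is an example. Its WT terminal-exon peak of 199 bp (chr11:6428236-6428434) lay inside a cKO peak of 2126 bp (chr11:6427408-6429533) that was annotated to the last intron and held 3 WT peaks. H2az2 had 8 peaks in cKO and 9 in WT, which covered 9389 bp in cKO and 2807 bp in WT.

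**Figure D3:**
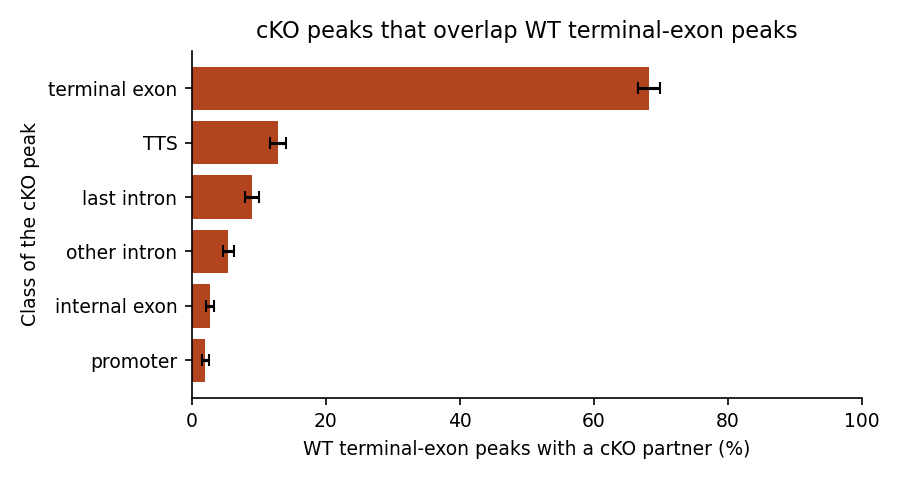
Share of the 3190 WT terminal-exon peaks with a cKO partner (x axis, percent) by the annotation class of the overlapping cKO peak (y axis); error bars are exact 95% Clopper-Pearson intervals. The partner is a cKO terminal-exon peak for 68.2% and a cKO TTS peak for 12.8%.

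Where a cKO and a WT terminal-exon peak met only each other, the widths could be compared peak by peak. There were 1349 such 1-to-1 pairs, 1341 of them in the same transcript, and their summits lay a median of 75 bp apart. The median width was 762 bp in cKO and 265 bp in WT, and the median ratio within a pair was 2.49 (quartiles 1.66 and 3.99). The cKO peak was the wider one in 1316 pairs (97.6%), the WT peak in 32, and 1 pair was equal. In 875 pairs (64.9%) the cKO peak was at least 2 times as wide. The pairs are peaks of the same 2 libraries and not replicates. Pairing selected wide cKO peaks: over all terminal-exon peaks the median width was 483 bp in cKO and 278 bp in WT. The ratio within pairs thus partly reflects this selection. Pairs of other classes were not formed, so these shares have no background beside them.

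**Figure D4:**
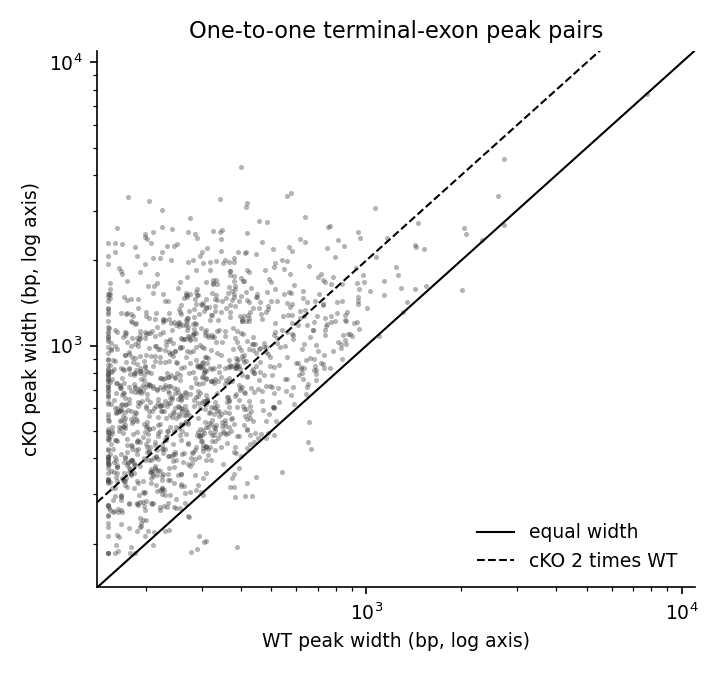
Width of the cKO peak (y axis, bp, log scale) against the width of the WT peak (x axis, bp, log scale) for the 1349 1-to-1 pairs, each point 1 pair; the solid line marks equal width and the dashed line a cKO peak 2 times as wide. Of the points, 1316 lie above the solid line.

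Counted by gene name of the annotation, 2538 genes had a terminal-exon peak in cKO alone, 1788 in both and 567 in WT alone. Counted by host gene, there were 2474, 1703 and 542. At equal covered length the counts by annotation name were 76 in cKO alone, 392 in both and 1963 in WT alone. The cKO genes were 19.1% of 21887 protein-coding genes and 45.3% of the genes with any cKO peak, and the WT genes 10.3% and 33.7%. Of the 542 host genes in WT alone, 525 (96.9%) had some cKO peak, and in 510 every WT terminal-exon peak was touched by one. Of the 2474 in cKO alone, 1500 (60.6%) had a WT peak elsewhere in the gene. Summed width was called higher in cKO when at least 2 times that of WT. By annotation name, 1307 of the 1788 shared genes (73.1%) were higher and 21 (1.17%) lower, beside 89.9% and 0.62% for all peaks of a gene. By host gene, 1263 of 1703 (74.2%) were higher and 17 lower, beside 91.3% and 0.324%. The higher calls were thus a smaller share than all peaks gave and the lower calls a larger one. The 2 measures are unlike: a WT terminal-exon peak can lie in a cKO peak of another class, whose width counts only among all peaks. The median summed width was 1432 bp in cKO and 373 bp in WT. Genes whose every peak was a terminal-exon peak numbered 391 in cKO (9.36%) and 413 in WT (18.4%).

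Some of the strongest terminal-exon peaks were shared by the genotypes. Hjurp, which encodes the chaperone of the centromeric histone CENP-A, had the second strongest cKO peak and the strongest WT peak. Its width was 7723 bp in cKO (chr1:88262644-88270366) and 7758 bp in WT (chr1:88262659-88270416), with a pileup at the summit, in its own list, of 155 tags in cKO and 76 in WT. The fold ratio over local input had the other order, 8.27 in cKO and 15.5 in WT. The summit lay 10175 bp upstream of the gene end in cKO and 11252 bp in WT. The Hjurp peak was also the widest WT terminal-exon peak, and unlike most pairs it was not wider in cKO. Gpatch11, which encodes a G-patch protein, had a narrow and strong peak of 621 bp in cKO and 591 bp in WT, in exon 10 of 10. Its annotation name was a predicted neighbour, Gm6548.

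Further strong peaks lay in genes with close relatives, where reads from near-identical copies could be split or lost. Zfp955a, a zinc finger gene with the relative Zfp955b, had a peak of 3363 bp in cKO and 2622 bp in WT. Rbm12b2 had a cKO peak of 2759 bp over 3 WT peaks, and in WT its 2 terminal-exon peaks summed to 687 bp. Rbmxl1, a retrocopy-derived gene for an RNA-binding protein, had 1 peak of 2947 bp in cKO over 2 WT peaks of 418 and 819 bp. Tubb2b, a tubulin of developing neurons, had a peak of 2014 bp in cKO and 1492 bp in WT. The values of these genes are uncertain for that reason.

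The widest cKO peaks joined many WT peaks. The peak of Mtch1, a mitochondrial outer membrane protein, measured 9981 bp in cKO (chr17:29331106-29341086) and spanned 9 WT peaks. Of these, 1 was a terminal-exon peak, of 397 bp. The peak of Asxl1, a Polycomb-associated chromatin regulator, measured 7553 bp in cKO (chr2:153395961-153403513) and spanned 5 WT terminal-exon peaks of 229 to 610 bp, all in exon 13 of 13, beside 1 WT TTS peak. Rnf10, a RING-type ubiquitin ligase gene, had a cKO peak of 7698 bp over 6 WT peaks, and its WT terminal-exon peaks summed to 624 bp. The widest cKO peak of all, of 10511 bp, lay in a predicted gene. Apart from Hjurp, the widest WT peaks were those of Mex3a with 2729 bp, of Zfp955a with 2622 bp, of the DNA demethylase gene Tet3 with 2507 bp, and 1 of 2724 bp that the annotation names Il4i1. Each was overlapped by a cKO peak, which at Tet3 belonged to the last intron.

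Among shared host genes, the 10 with the largest width difference were Mtch1, Ubr4, Chd6, Dchs1, Cdc23, Rnf10, Eif4e2, Mrps18a, Pxdn and Zfp282. Ubr4, a large ubiquitin ligase, had 9402 bp of terminal-exon peak in cKO and 514 bp in WT. Dchs1, a protocadherin of planar polarity known for its role in cortical development, had 9465 bp in cKO and 2057 bp in WT. Chd6, a chromatin remodeller, had 9196 bp in cKO and 1307 bp in WT. Cdc23, a subunit of the anaphase-promoting complex, had 7322 bp in cKO and 192 bp in WT. Eif4e2, a cap-binding protein, had 7057 bp in cKO and 162 bp in WT. In all 5 genes the cKO sum was over 4 times that of WT, the strictest size rule tried. The genes were picked for a large difference, so this follows in part from the choice. Over all their peaks, Ubr4 had 89523 bp in cKO and 32353 bp in WT, and Dchs1 21531 bp in cKO and 11757 bp in WT. Chd6 had 49862 bp in cKO and 7672 bp in WT, and Cdc23 14774 bp in cKO and 2934 bp in WT. Eif4e2 had 15040 bp in cKO and 2369 bp in WT. The Dchs1 widths over all peaks did not reach the 2-fold rule.

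The 5 shared genes with the lowest difference were Dynlt1c, Abl1, Zmiz1, Zfp354c and Prpf38b. Abl1, a tyrosine kinase gene, had 1258 bp in cKO and 2679 bp in WT. Its WT peaks of 2463 and 216 bp in exon 11 of 11 lay inside a cKO TTS peak (chr2:31793100-31803357), and the 3 cKO terminal-exon peaks lay 109279 to 110973 bp upstream of the gene end in exon 2 of 2 of a short transcript. Zmiz1, a transcriptional coregulator gene, had 3017 bp in cKO and 4136 bp in WT, and its WT peak of 1351 bp in exon 24 of 24 lay inside a cKO intron peak. Prpf38b, a splicing factor gene, had 240 bp in cKO and 1133 bp in WT, again inside a cKO TTS peak (chr3:108903263-108905364). Zfp354c, a zinc finger gene, had 559 bp in cKO and 1492 bp in WT. Dynlt1c, of a dynein light chain family with near-identical copies, had 839 bp in cKO and 2482 bp in WT. Over all their peaks, these 5 genes were wider in cKO, for example 25007 bp in cKO and 9065 bp in WT for Abl1.

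Some genes held many terminal-exon peaks, in 1 last exon or in those of several transcripts. Gabpb2 had 9 in cKO and 3 in WT, Herc1 9 in cKO and 1 in WT, Nsd2 9 in cKO and 7 in WT, and Ago2 8 in cKO and 2 in WT. Nsd2 is an H3K36 methyltransferase and Ago2 an Argonaute protein of RNA silencing. Naa25 had 3 in cKO and 7 in WT, the largest WT number together with that of Nsd2. Apc2, a neuronal relative of APC, had 1 cKO peak of 5501 bp (chr10:80310818-80316318) that overlapped 5 of its 6 WT terminal-exon peaks, which were 270 to 1426 bp wide. Brwd1 had 3 in cKO and 6 in WT, and Arhgef7 4 in cKO and 5 in WT. Over all host genes, 1524 in cKO (36.5%) and 640 in WT (28.5%) had 2 or more terminal-exon peaks.

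Of the 5 strongest cKO terminal-exon peaks without any WT partner, 2 lay in the predicted gene Gm21811, with summit pileups of 108 and 114 tags. The others lay in Polh, the translesion polymerase eta, with 984 bp, in Zfand2a with 2412 bp and in Azi2 with 473 bp. Of the 5 strongest WT ones without a cKO partner, 3 lay in predicted genes and the rest in Stx8, a syntaxin, with 282 bp, and in Tmcc1 with 203 bp.

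Zinc finger genes named Zfp, most of which encode their finger array in a single long last exon, had many terminal-exon peaks. Of the Zfp genes with any peak, 217 of 320 in cKO (67.8%) and 158 of 247 in WT (64.0%) had a terminal-exon peak, beside 45.3% and 33.7% of all marked genes. These peaks were 352 of 2075 Zfp peaks in cKO (17.0%) and 255 of 948 in WT (26.9%), beside 7.41% and 9.18% of the peaks of all protein-coding genes. Of the 134 Zfp genes with terminal-exon peaks in both, 99 were higher by the 2-fold rule and 2 lower, beside 74.2% higher and 0.998% lower among all shared host genes, and the median ratio was 3.15 beside 3.35 for all genes. Zfp282 had 7800 bp in cKO and 1039 bp in WT. Zfp60 had 1 peak of 7065 bp in cKO over 8 WT peaks, of which 2 were terminal-exon peaks, and these summed to 742 bp. Zfp606 had 6700 bp in cKO and 1211 bp in WT. Of the 24 Zfp genes in WT alone, Zfp180 had the largest sum, with 3 peaks of 697, 1499 and 472 bp, all inside a cKO peak of the last intron (chr7:24100343-24108134). The next were Zfp335 with 2117 bp and Zfp955b with 2097 bp, also wholly inside cKO peaks. Zfp genes lie in clusters of related sequence, so reads of some members may have been lost or shared.

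The Zbtb genes, whose proteins join a BTB domain to zinc fingers, had terminal-exon peaks in 22 of 32 marked members in cKO (68.8%) and 13 of 23 in WT (56.5%), beside 45.3% and 33.7% of all marked genes. Zbtb21 had 3661 bp in cKO and 805 bp in WT, and Zbtb39 had 4038 bp in cKO and 2455 bp in WT. Zbtb9 had 1924 bp in cKO and none in WT, where it had 1 peak of another class. Zbtb48 had 782 bp in WT and none in cKO. The WT peak of Zbtb48 lay wholly inside a cKO peak. Zbtb49 had 309 bp in cKO and 657 bp in WT and was the 1 member called lower, while 6 of the 12 shared members were called higher, beside 74.2% of all shared host genes.

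Genes of ribosomal proteins, which are short and strongly transcribed, stood at the other end. Of those with any peak, 5 of 52 in cKO (9.62%) and 9 of 56 in WT (16.1%) had a terminal-exon peak, beside 45.3% and 33.7% of all marked genes, and 3 had one in both. All 3 were called higher, beside 74.2% of all shared host genes. Rpl31 had a cKO peak of 4092 bp, annotated to exon 20 of 20 of an overlapping transcript, over 3 WT peaks that were not terminal-exon peaks. Rpl14 had 3182 bp in cKO and 221 bp in WT, and Rps15a had 2357 bp in cKO and 184 bp in WT. Rps3, Rpl8, Rpl34, Rps19, Rpl29 and Rps14 had terminal-exon peaks in WT alone. These WT peaks lay wholly inside cKO peaks, apart from that of Rpl29, of which 72.8% did. The WT peak of Rps3 measured 2165 bp and lay inside a cKO peak annotated to a promoter. Ribosomal protein genes have many processed copies, so their values are uncertain.

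Among 30 genes of radial glia and progenitor signalling, terminal-exon peaks were found in 11 of 24 marked genes in cKO (45.8%) and 10 of 22 in WT (45.5%), beside 45.3% and 33.7% of all marked genes. Of the 9 in both, 6 were higher by the 2-fold rule and 0 lower, beside 74.2% and 0.998% of all shared host genes. Notch1 summed to 6585 bp in cKO and 2357 bp in WT. Of the cKO sum, 5346 bp was 1 peak (chr2:26466111-26471456) in exon 2 of 2 of a transcript. The Notch1 sums of the 2 libraries therefore need not cover the same last exons. Notch2, the paralogue of Notch1, had 3172 bp in cKO and 394 bp in WT. Gli3, a repressor of Hedgehog targets that patterns the dorsal forebrain, had 4421 bp in cKO and 1834 bp in WT. Top2a, the topoisomerase of dividing cells, had 1998 bp in cKO and none in WT, although it had 9 peaks in cKO and 23 in WT.

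Nes, the intermediate filament of progenitors, had 4 peaks summing to 2939 bp in cKO and 5 summing to 2486 bp in WT, all in exon 4 of 4. A Nes peak of 1720 bp in cKO overlapped 3 WT peaks of 1063, 199 and 297 bp. Lhx2, a regulator of cortical progenitors, had 838 bp in cKO and 370 bp in WT. Cdh2, the N-cadherin of apical junctions, had 575 bp in cKO and 631 bp in WT. Sox9, a progenitor transcription factor, had 456 bp in WT alone, inside a cKO peak of the last intron.

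Of the genes of intermediate progenitors, 3 of 6 marked ones had a terminal-exon peak in cKO and 4 of 7 in WT, beside 45.3% and 33.7% of all marked genes. Of the 3 with one in both, 2 were called higher and 0 lower, beside 74.2% higher among all shared host genes. Btg2, an antiproliferative gene of neurogenic progenitors, had 3 peaks in each library, summing to 1794 bp in cKO and 751 bp in WT. Mfng, a modifier of Notch receptors, had 1453 bp in cKO and 616 bp in WT. Dll1, a Notch ligand, had 335 bp in WT alone, wholly inside a cKO peak. Of the cortical neuron genes, 8 of 13 marked in cKO and 6 of 10 in WT had one, against the same background. Only 2 of the 5 cortical neuron genes with one in both were called higher, and 0 lower, beside 74.2% higher among all shared host genes. Cux1, of upper-layer neurons, had 3541 bp in cKO and 641 bp in WT. Map2, a dendritic microtubule protein, had 2045 bp in cKO and 481 bp in WT. Tubb3, a neuronal tubulin, had 1 peak of 2191 bp in cKO and 1523 bp in WT. Cux2, of upper-layer neurons, had a narrow peak of 206 bp in cKO alone, and Fezf2, of deep-layer neurons, had 182 bp in WT alone, with no cKO peak. Of the interneuron genes, 2 of 3 marked in cKO and 2 of 4 in WT had a terminal-exon peak, counts too small to set beside that background. Sp8 had 752 bp in cKO alone and Sp9 166 bp in WT alone, with no cKO peak there. Of the 33 genes of other cell types, Alas2 of the erythroid lineage had 232 bp in cKO and none in WT, and no other member had a terminal-exon peak.

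Genes that write, erase or read H3K36 methylation had terminal-exon peaks in 16 of 31 marked members in cKO (51.6%) and 15 of 23 in WT (65.2%), beside 45.3% and 33.7% of all marked genes. Of the 10 with one in both, 5 were called higher and 0 lower, beside 74.2% higher among all shared host genes. Nsd1, a methyltransferase, had 7073 bp in cKO and 2125 bp in WT. Pwwp3a, a PWWP-domain protein, had 5719 bp in cKO and 1361 bp in WT. Dnmt3a, a DNA methyltransferase that binds the mark, had 2622 bp in cKO and 257 bp in WT. Brpf3, a bromodomain and PWWP protein, had 3400 bp in cKO and none in WT, although it had 21 peaks of any class in each library. Setd2 itself had 554 bp in WT alone, inside a cKO peak of 1237 bp in the last intron, and it had 45 peaks in cKO and 9 in WT. Kdm4b, Glyr1, Ash1l and Supt6 also had terminal-exon peaks in WT alone, of 462, 203, 560 and 1154 bp, all wholly inside cKO peaks.

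Subunits of the complexes that exchange H2A.Z had terminal-exon peaks in 10 of 26 marked genes in cKO and 10 of 25 in WT, beside 45.3% and 33.7% of all marked genes. Of the 6 subunits with one in both, 4 were called higher and 0 lower, beside 74.2% higher among all shared host genes. Ep400 and Srcap, the ATPases of H2A.Z deposition, had 2304 and 2227 bp in cKO and none in WT. Counting peaks of any class, Ep400 had 49 in cKO and 31 in WT, and Srcap 34 in cKO and 23 in WT. Yeats4 had 2027 bp in cKO and 152 bp in WT. Ino80, the ATPase of the complex of that name, had 1295 bp in cKO and 173 bp in WT. Epc1, Ruvbl1 and Trrap had 339, 411 and 602 bp in WT alone. Those of Epc1 and Trrap lay wholly inside cKO peaks, and that of Ruvbl1 for 81.3% of its length. Of other chromatin remodellers, 16 of 27 marked genes in cKO (59.3%) and 15 of 25 in WT (60.0%) had one, beside 45.3% and 33.7% of all marked genes. Of the 12 remodellers with one in both, 5 were called higher and 0 lower, again beside 74.2% higher among all shared host genes. Baz1b had 5431 bp in cKO and 726 bp in WT, and the acetyltransferase gene Ep300 had 2856 bp in cKO and 1550 bp in WT. Arid1a, a subunit of BAF complexes, had 2321 bp in WT alone, in 2 peaks that lay inside cKO peaks of the last intron and of an internal exon. Smarcc1 and Kmt2d had 365 and 207 bp in WT alone, wholly inside cKO peaks.

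Factors of 3′ end processing had terminal-exon peaks in 15 of 30 marked genes in cKO (50.0%) and 12 of 28 in WT (42.9%), beside 45.3% and 33.7% of all marked genes. All 7 with one in both were called higher, as were 74.2% of all shared host genes. Cpsf2, a subunit of the cleavage complex, had 1671 bp in cKO and none in WT, although it had 21 peaks of any class in cKO and 10 in WT. Pabpc1, which binds poly(A) tails in the cytoplasm, had 1994 bp in cKO and 522 bp in WT, and Pabpn1, its nuclear counterpart, had 1571 bp in WT alone. Cstf1, Sympk, Papolg and Cpsf6 also had theirs in WT alone, of 166 to 659 bp. The WT peaks of Cstf1, Sympk and Papolg lay wholly inside cKO peaks. That of Pabpn1 did so for 89.0% of its length, and that of Cpsf6 met no cKO peak. Splicing factors had them in 14 of 34 marked genes in cKO (41.2%) and 13 of 34 in WT (38.2%), against the same background. Of the 7 splicing factors with one in both, 5 were called higher and 0 lower. Srsf4 had 5068 bp in cKO and 1710 bp in WT, Srsf6 had 2966 bp in cKO and 916 bp in WT, and Hnrnpm had 295 bp in cKO and 363 bp in WT. Snrnp70 and Srsf3 had 1154 and 852 bp in WT alone, and Srrm1, Sf3b2, Sf3b3 and Srsf5 had 295 to 630 bp there and none in cKO. All of these WT peaks lay wholly inside cKO peaks.

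Replication and mitosis genes had terminal-exon peaks in 12 of 33 marked members in cKO (36.4%) and 10 of 32 in WT (31.3%), beside 45.3% and 33.7% of all marked genes, and 6 had one in both. Of these 6, 4 were called higher and 0 lower, beside 74.2% higher among all shared host genes. Mcm3 had 2214 bp in cKO and none in WT, although it had 6 peaks of any class in cKO and 10 in WT. Rfc3 had 2106 bp in cKO and 154 bp in WT. Hjurp summed to 8194 bp in cKO and 8211 bp in WT. Of the helicase subunits, Mcm2, Mcm5 and Mcm6 had 343, 224 and 186 bp in WT alone, as did Rpa2, of the single-strand binding complex, with 353 bp. The WT terminal-exon peaks of these genes lay wholly inside cKO peaks. Common housekeeping genes had them in 12 of 32 marked members in cKO (37.5%) and 8 of 30 in WT (26.7%), against the same background. Only 2 of the 6 housekeeping genes with one in both were called higher, and 0 lower. Ncl had 4822 bp in cKO and 519 bp in WT. Sdha, of mitochondrial complex II, had 4528 bp in cKO and none in WT, although it had 16 peaks of any class in cKO and 6 in WT. Hspa5, the chaperone of the endoplasmic reticulum, had 1 cKO peak of 4408 bp over 3 WT peaks at its promoter and TTS. Polr2a and Ldha had 258 and 545 bp in WT alone, wholly inside cKO peaks.

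**Figure D5:**
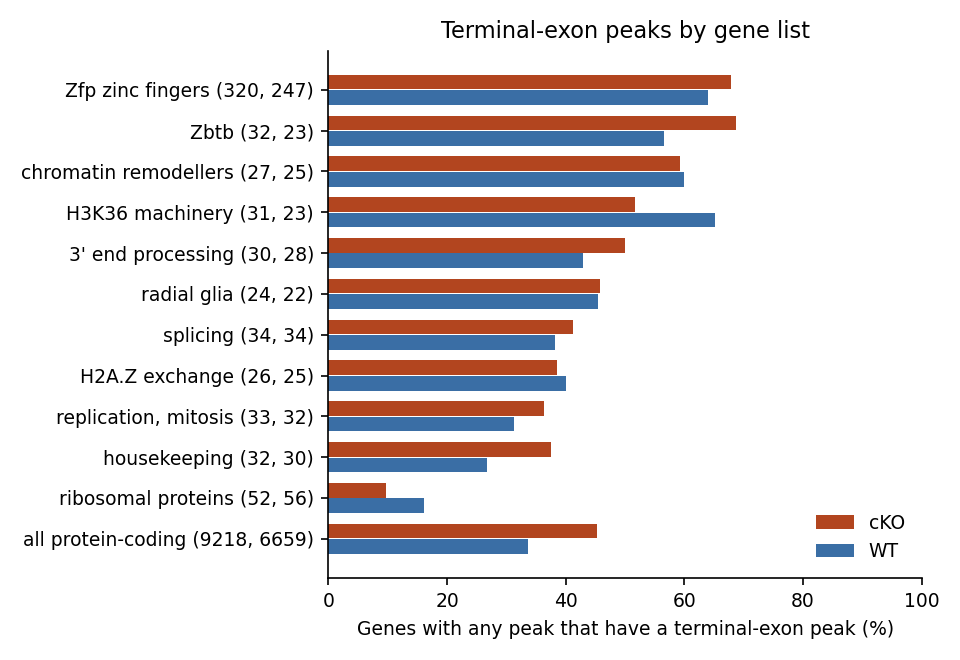
Share of the genes with any peak that have a terminal-exon peak (x axis, percent), by gene list (y axis, with the number of marked genes in cKO and WT in brackets), in cKO (upper bar) and WT (lower bar). The Zfp bars reach 67.8% and 64.0%, the ribosomal protein bars 9.62% and 16.1%, and the bars of all protein-coding genes 45.3% and 33.7%.

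Terminal-exon peaks rarely reached an annotated gene start. Peaks that the annotation places at a promoter form a class of their own, so a low share was in part set by the rule. The start could also be that of the host gene itself, as for Nfya and Sun1 in cKO. A promoter window, from 250 bp before to 50 bp after a RefSeq start, was touched by 20 cKO peaks (0.292%, 0.178 to 0.450%) and 6 WT peaks (0.184%, 0.0674 to 0.399%), beside 0.409% of all cKO and 0.277% of all WT peaks. In cKO, 7 windows lay wholly inside a terminal-exon peak, and in WT 0 did. These included the start of Noxred1 in the terminal-exon peak of Vipas39, 1864 bp wide in cKO and 548 bp wide in WT, and the start of Fermt3 in that of Stip1, a chaperone cofactor gene, which measured 4818 bp in cKO.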

How the data were processed

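H3K36me3 ChIP-seq and input libraries were made from embryonic day 13 forebrain, crosslinked with 1% formaldehyde, per the labels' protocols. The submitters' processing notes name mm10, Bowtie2 2.2.9, FastQC and bedtools. Peaks were called narrow and per library against input with MACS (2.1.1.20160309 per the file headers, MACS2 2.1.0 per the submitters' processing notes) at a p cutoff of 1e-05, on unique alignments with duplicates removed, and with modelled fragments of 185 bp in cKO and 152 bp in WT, per the file headers. The deposited lists give positions, the pileup signal at the summit, the fold ratio over local input, and the −log10 p-value and q-value of each peak. The header says that q was not calculated, yet its column holds positive values. Scores were ranked within a list only. Narrow calling was used for a broad mark, so 1 marked region can be listed as several peaks.

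The annotation (tool not given in the sources used here) was joined to the peaks by position. Host genes came from RefSeq (GRCm38.p6), a choice made after the data were seen. Of 21887 protein-coding genes, 17492 had a strand. Partners overlapped by at least 1 bp. Genes were called by a 2-fold rule of summed width. Python 3.11.15, numpy 2.4.6, pandas 2.3.3, scipy 1.17.1 and matplotlib 3.10.9 were used, and the overlap and class code was tested on simulated data. The members, the 15 gene lists and the rule for named genes were chosen with earlier results of these data known. Named were, per library, the 5 strongest, the 5 widest and the 5 strongest partnerless peaks, the 5 genes with the most peaks, the 10 largest and 5 lowest width differences, H2az1, H2az2, and 2 to 4 members per list with the largest differences plus members in WT alone. Nes, Lhx2, Cdh2, Tubb3, Cux2, Hnrnpm, Hjurp among the mitotic genes, Zbtb49 and the genes at microRNAs and promoter windows were added after their values were seen. Some genes that the rule selects are not reported here. Predicted genes were summarised, and of the Zfp genes in WT alone the widest were named. Alternatives were stricter peak thresholds, shortened cKO lists, other overlap and fold rules and 3 or more exons. No replicate existed to leave out.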

Additional observations from a re-analysis of the deposited data

How the results depend on the processing

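Of 67 values computed under alternatives, 35 stayed within the counting interval of the main value (or within 1.5 times a main count) and 32 lay outside it. More genes were called higher than lower in cKO under each alternative that recomputed the calls, and single genes were not followed. Terminal-exon peaks were wider in cKO under each alternative that recomputed width, namely the stricter thresholds, the shortened cKO lists and 3 or more exons. Under these alternatives their share of all peaks was lower in cKO, except with the cKO list shortened to the covered length of WT. There it was 9.19% in cKO (8.43 to 10.0%), an interval that holds the 8.88% of WT. The other alternatives could not change width or share. That cut left 488 cKO terminal-exon peaks with a median width of 1821 bp, of which 93.4% had a WT partner, while 32.0% of WT peaks had a cKO partner. It gave 76 genes in cKO alone, 392 in both and 1963 in WT alone, with 230 higher and 3 lower. With the cKO list shortened to the WT number of peaks, the cKO share was 8.21%, the width 864.5 bp, the partnered share 54.8% of cKO and 83.2% of WT peaks, and 983 genes had a terminal-exon peak in cKO alone and 921 in WT alone, with 12 lower. By construction these cuts keep strong peaks, which are wide. With −log10 q of at least 5 the widths were 505 bp in cKO and 304 bp in WT and 25.5% of cKO peaks had a partner. With a fold enrichment of at least 4 the cKO share was 7.36%, the widths were 532 bp in cKO and 287 bp in WT, and 93.3% of WT peaks had a partner. Transcripts of 3 or more exons gave shares of 6.18% in cKO and 7.68% in WT, since fewer peaks count. A reciprocal overlap of 50% left partners for 7.39% of cKO and 15.5% of WT peaks, and coverage of at least 50% of the peak left 9.45% and 96.6%. A 1.5-fold rule called 46 genes lower, and a 4-fold rule 741 higher and 4 lower. Counting by host gene, added after seeing the data, moved no count by over 1.5 times. No paired analysis was possible because there was 1 ChIP library per genotype, and for the same reason no library could be left out. Depth was similar in the libraries, so it limits both lists alike in number of tags, but enrichment of the immunoprecipitations was not measured separately.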
